A study of Mus musculus with 6 samples.

Results

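The matrix metalloproteinases (MMPs), the ADAMTS proteases, the pappalysins and the tissue inhibitors of metalloproteinases (TIMPs) were described in the lumbar dorsal root ganglia of mice after a burn injury. The members were taken by symbol: every Mmp gene with a number except Mmp8 and Mmp9, which the rule left out, every Timp and Adamts gene with a number, and Pappa and Pappa2. They came to 46 of the 38926 gene symbols counted, 21 MMP genes, 19 ADAMTS genes, 4 TIMP genes and 2 pappalysin genes. Stranded total RNA came from whole ganglia of segments L3, L4 and L5, the clusters of sensory neuron cell bodies next to the spinal cord, of male wild-type C57BL/6 mice aged 6 to 8 weeks. The burn group was taken at day 3 after the injury and held 3 libraries, and the control group held 3 libraries with no further treatment named. Burn 3 is the library whose title says ipsilateral and carries no number. The sources used here give neither the side of burn 1 and burn 2, nor the site of the burn, nor any pooling of animals. Nothing in the labels says that libraries came from separate animals. The p-values therefore reflect only how far these samples differ from each other, and that spread may be technical.

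All of these enzymes use a zinc ion held by histidines to cut proteins. MMPs and ADAMTS proteases cut collagens, proteoglycans and other matrix proteins, and TIMPs bind the active site and block it. Pappalysins cut the binding proteins of insulin-like growth factors and so release the growth factor. In peripheral nerve and ganglia, MMPs are known for opening the blood-nerve barrier, for cutting myelin proteins and for processing cytokines after injury.

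The coding sequence of the zinc site shows what the families share, and it is printed for the members to which the results return and for a relative of each. Capitals mark the codons of the histidine-glutamate pair, of the second histidine, of the glycine or asparagine, and of the third histidine. The windows run 33 bases in the 5′ to 3′ direction of the coding strand and come from GENCODE mouse release M21 on GRCm38.
Pappa: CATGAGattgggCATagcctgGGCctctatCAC
Pappa2: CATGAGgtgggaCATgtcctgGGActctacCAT
Mmp16: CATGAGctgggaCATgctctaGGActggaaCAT
Mmp14: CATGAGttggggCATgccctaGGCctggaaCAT
Mmp13: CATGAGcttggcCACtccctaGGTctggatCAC
Adamts5: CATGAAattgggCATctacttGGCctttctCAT
Adamts1: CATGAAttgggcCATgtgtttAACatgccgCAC
The Pappa window lies at chr4:65180920-65180952 on the + strand in exon 4, and the Mmp16 window at chr4:18051748-18051780 on the + strand in exon 5. The Mmp16 and Mmp14 windows were identical at 29 of 33 bases, Pappa and Pappa2 at 25, Pappa and Mmp16 at 21, and Adamts1 and Adamts5 at 20. In the longest annotated coding sequence of each gene, the form with glycine stood in 21 of 21 MMP genes, 13 of 19 ADAMTS genes and 2 of 2 pappalysin genes. The form with asparagine stood in 5 ADAMTS genes, Adamts1, Adamts4, Adamts9, Adamts15 and Adamts20. Adamts8 and the 4 TIMP genes held neither form. Among 21877 protein-coding genes 69 held the glycine form and 5 the asparagine form, 0.338% in all.

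A second feature, the start-site sequence, set apart the 9 MMP members that lie in a row on chromosome 9. The row was counted among the members, so without Mmp8 and Mmp9. The printed windows, from RefSeq on GRCm38.p6, run from 250 bases before to 50 bases after the annotated start. Mmp13 (chr9:7272264-7272563, + strand) and Mmp3 (chr9:7445572-7445871, + strand) stand for the row, and Timp2 (chr11:118355362-118355661, - strand), the most abundant member per length, for the genes outside it. Capitals mark TGANTCA, a pattern that covers the motif of AP-1 factors, and TATAAA, a form of the TATA box. Both were searched on both strands, and their matches do not overlap in the printed windows.
Mmp13: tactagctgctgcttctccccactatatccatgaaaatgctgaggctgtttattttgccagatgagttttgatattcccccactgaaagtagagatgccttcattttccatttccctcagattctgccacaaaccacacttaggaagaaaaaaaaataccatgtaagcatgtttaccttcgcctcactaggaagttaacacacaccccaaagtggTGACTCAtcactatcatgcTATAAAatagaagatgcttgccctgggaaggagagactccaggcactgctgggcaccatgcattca
Mmp3: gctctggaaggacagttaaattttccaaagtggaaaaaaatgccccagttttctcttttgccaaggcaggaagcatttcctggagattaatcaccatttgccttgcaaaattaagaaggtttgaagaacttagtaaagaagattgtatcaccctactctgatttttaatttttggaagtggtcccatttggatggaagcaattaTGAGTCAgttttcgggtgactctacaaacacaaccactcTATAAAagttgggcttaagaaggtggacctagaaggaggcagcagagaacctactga
Timp2: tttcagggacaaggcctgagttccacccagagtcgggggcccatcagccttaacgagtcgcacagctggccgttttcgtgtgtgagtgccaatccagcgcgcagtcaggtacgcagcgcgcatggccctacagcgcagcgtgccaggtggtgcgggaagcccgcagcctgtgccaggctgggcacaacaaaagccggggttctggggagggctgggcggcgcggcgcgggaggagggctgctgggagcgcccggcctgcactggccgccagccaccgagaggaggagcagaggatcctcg
Promoters were given for 32 of the 46 members, 35 in all. TGANTCA stood in 8 of the 11 promoters of the chromosome 9 row (72.7%) and in 0 of the 24 promoters of other members, against 7.81% of 32851 mouse promoters of the same length. TATAAA stood in 8 of those 11 and in 2 of the 24 (8.33%), against 13.6% of all promoters. The median number of CG dinucleotides was 1 in the row, 19.5 outside it and 7 over all promoters. Mmp27 was the gene of the row with neither motif in its window. A match describes these letters and shows no bound factor, and the letters were searched after the row had been seen.

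Reads counted in genes came to 22023565, 30074469 and 70002671 in burn 1, 2 and 3, against 35991111, 17273908 and 81968142 in control 1, 2 and 3. The members took 30408 to 128109 reads per library. The leading principal component (39.4% of the variance) set burn 3 and control 3 apart from the other 4 libraries. These 2 also held the most reads. Sensory neuron markers, 7 of 7 tested, summed to 7160 to 9070 CPM (the read count relative to the scaled library size) in burn and 7850 to 9910 CPM in control ganglia. Markers of injured neurons, 5 of 5 tested, summed to 92.5 to 148 CPM in burn and 12.7 to 15.7 CPM in control ganglia, and 3 of the 5 passed the test, all higher. Fibroblast, endothelial, mural, Schwann cell, satellite glia, muscle, cartilage, macrophage and neutrophil markers were also present, so the ganglia were not neurons alone, whatever the sample names say. None of these marker genes was at 0 in all libraries.

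No member changed at an adjusted p under 0.05 in edgeR's quasi-likelihood test with Benjamini-Hochberg adjustment. Of the 46 members 36 passed the filter on low counts and were tested, and 0 were called, beside 4 higher genes (0.0228%) and 0 lower genes among the 17534 tested. At an unadjusted p under 0.05, 3 of 36 members were higher, Pappa, Mmp16 and Adamts19, where 2.04% of all tested genes were higher. At the same limit 0 of 36 members were lower, where 0.924% of all genes were. In these 3 members every burn library stood above every control library, which held for 4.33% of all tested genes. In 0 members did every burn library stand below every control library, which held for 2.91% of all genes. DESeq2 called 2 members higher, Pappa and Mmp16, with 28 of 26927 genes (0.104%) called higher in all, and limma-voom called 0 members. The count of 3 was read beside these shares and was not itself tested.

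**Figure D1:**
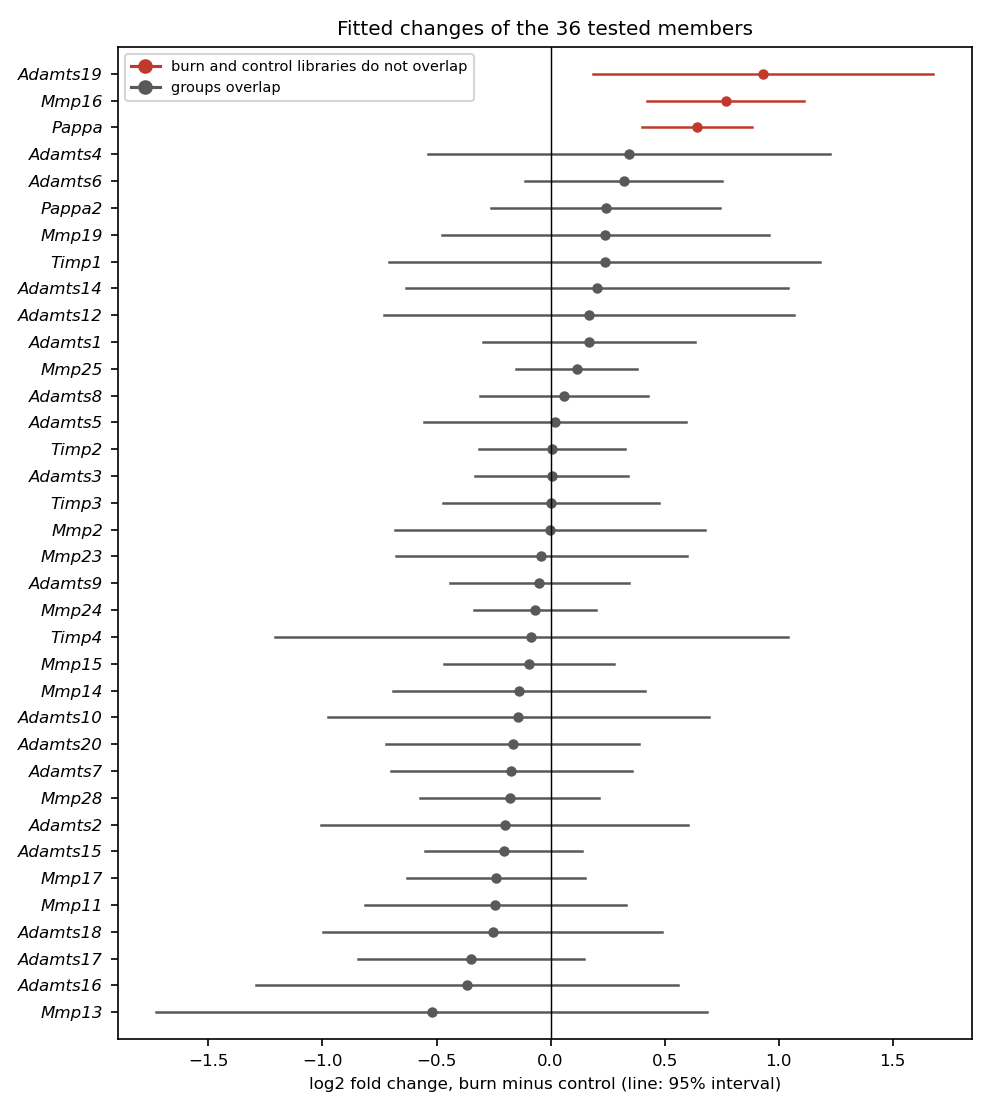
Log2 fold changes of the 36 tested members, burn minus control, with 95% intervals from edgeR's fit (3 burn and 3 control libraries). The 3 members drawn in red, Adamts19, Mmp16 and Pappa, are those whose libraries do not overlap between the groups; every other interval crosses 0.

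Over the 36 tested members 17 log2 fold changes were positive and 19 negative. Their median was -0.02, against 0.01 over all 17534 genes. Apart from the 3 named above, fold changes lay between -0.52 and 0.34 on the log2 scale and the lowest unadjusted p was 0.124 in edgeR. In the 33 other members the burn and control libraries overlapped.

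Pappa, pregnancy-associated plasma protein A, cuts the insulin-like growth factor binding proteins IGFBP4 and IGFBP5. It stood at 27.9, 30.9 and 28.8 CPM in burn 1, 2 and 3, against 18.7, 18.3 and 19.1 CPM in control 1, 2 and 3. These values rest on 631, 933 and 1892 reads in burn and on 685, 329 and 1517 reads in control libraries. All burn libraries lay above all controls, and the controls of Pappa differed less among themselves than those of any other tested member, with a coefficient of variation of 2.02%. The means were 29.2 ± 1.55 CPM in burn and 18.7 ± 0.378 CPM in control ganglia (SD, n = 3 each). The log2 fold change was 0.64 (SE 0.10, 95% interval 0.40 to 0.88), a ratio of 1.56, with an adjusted p of 0.311 in edgeR's quasi-likelihood test and of 0.0049 in DESeq2. Between the deeper libraries, burn 3 and control 3, it differed by 0.59 on the log2 scale, and among the 4 shallower ones by 0.67. In ganglia sequenced in bulk, more cells of a type and more RNA per cell cannot be told apart.

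Pappa2, the other pappalysin, cuts IGFBP3 and IGFBP5. Its level was 15.3, 13.6 and 19.1 CPM in burn, against 10.2, 17.1 and 13.5 CPM in control ganglia. The groups overlapped, with control 2 above burn 1 and burn 2. The log2 fold change was 0.24 (SE 0.22, adjusted p 0.9998 in edgeR's quasi-likelihood test). Its exons share 310 bases with 1600012P17Rik on the same strand.

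Mmp16, a membrane-type MMP that is anchored in the cell surface and can activate the precursor of Mmp2, was the second member of the 3. Its normalised read count was 25.6, 24.5 and 27.9 CPM in burn 1, 2 and 3, against 15.5, 12.6 and 17.6 CPM in the controls, from 579, 740 and 1838 reads against 567, 226 and 1401. The lowest burn library lay above the highest control. The means were 26.0 ± 1.77 CPM and 15.2 ± 2.52 CPM in burn and control ganglia (SD, n = 3 each). Its log2 fold change was 0.77 (SE 0.15, 95% interval 0.42 to 1.11), a ratio of 1.70, with an adjusted p of 0.628 in edgeR's quasi-likelihood test and of 0.0404 in DESeq2. The deeper pair of libraries differed by 0.67 on the log2 scale and the 4 shallower ones by 0.84. Mmp16 lies at chr4:17852893-18119145 and Pappa at chr4:65124174-65357509, both on the + strand of GRCm38, and neither shares exon bases with another annotated gene.

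Adamts19, an ADAMTS protease of chromosome 18 whose substrates are poorly known, was scarce. It had 19, 19 and 56 reads in burn 1, 2 and 3 and 13, 5 and 41 reads in control 1, 2 and 3. Scaled to depth these were 0.839, 0.629 and 0.851 CPM in burn against 0.355, 0.278 and 0.515 CPM in control ganglia, without overlap. The log2 fold change was 0.93 (SE 0.32, 95% interval 0.19 to 1.68), with an unadjusted p of 0.0207 and an adjusted p of 0.9998 in edgeR's quasi-likelihood test. The interval is wider than those of Pappa and Mmp16, and it holds both of their fold changes.

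**Figure D2:**
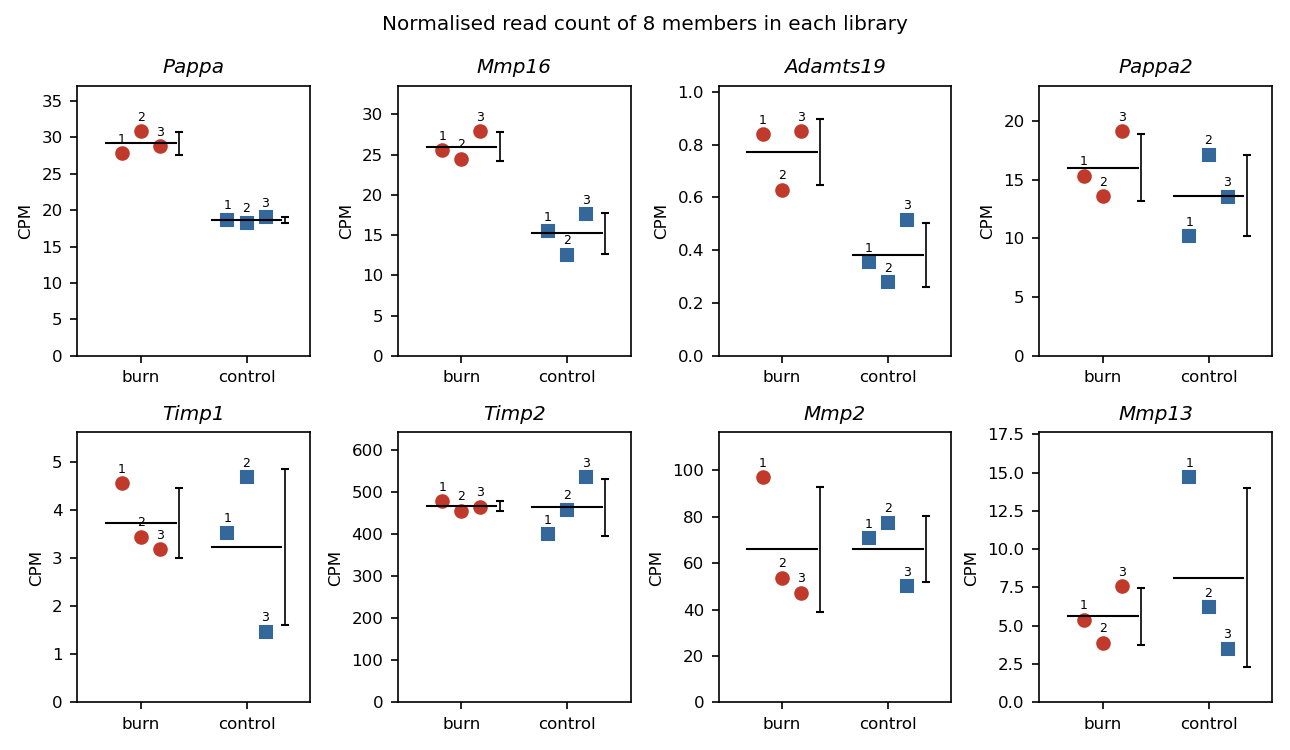
Normalised read count (CPM, axes from 0) of 8 members in each library; red circles are burn libraries and blue squares control libraries, numbered 1 to 3, with lines at the means and bars of 1 SD. Pappa, Mmp16 and Adamts19 show no overlap between the groups, while Pappa2, Timp1, Timp2, Mmp2 and Mmp13 overlap.

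Among the markers of other tissues, 1 list held genes that were higher in burn beside these 3 members. Of 6 spinal cord markers, 6 tested, 4 were higher in burn at an unadjusted p under 0.05 (Mog, Olig1, Slc6a5 and Opalin) and 0 were called. In that order, the log2 fold changes of these 4 were 1.75 (SE 0.48), 1.53 (SE 0.37), 1.66 (SE 0.47) and 2.18 (SE 0.55). In each of them every burn library stood above every control library. The other 2 markers, Aldh1l1 and Gjb6, had log2 fold changes of 0.15 (SE 0.15) and -0.27 (SE 0.36). Those 2 were the most abundant of the list, with means of 19.6 and 14.4 CPM in burn and 17.7 and 17.4 CPM in control ganglia. The list summed to 40.3 to 56.1 CPM in burn and 27.0 to 52.9 CPM in control ganglia, so the sums overlapped, with none of the 6 at 0 throughout. Mog, a myelin protein of the central nervous system, had 5.34, 2.02 and 4.42 CPM in burn against 1.501, 1.557 and 0.590 CPM in control ganglia. Among the burn libraries Mog was lowest in burn 2, as were Mmp16 and Adamts19, while Pappa was highest there. Among the controls Mog was lowest in control 3, as were Olig1, Slc6a5 and Opalin. Mmp16, Adamts19 and Pappa were highest of the controls there, at 17.6, 0.515 and 19.1 CPM. The part of spinal cord tissue, or of the injured-neuron response given above, in the values of Pappa, Mmp16 and Adamts19 was not tested.

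In edgeR none of the 6 membrane-type MMPs passed the test, Mmp16 included. Mmp14, a collagen-cutting protease that activates the Mmp2 precursor together with Timp2, had 60.8, 35.2 and 36.8 CPM in burn and 44.1, 59.4 and 42.7 CPM in control ganglia. Mmp15, another transmembrane member, had 123, 110 and 113 CPM in burn and 94.9, 136 and 139 CPM in control ganglia. Mmp24, known from neurons and able to cut N-cadherin, had 40.2, 44.4 and 37.2 CPM in burn and 39.1, 43.2 and 45.3 CPM in control ganglia. The burn and control libraries overlapped in each of these genes. The log2 fold changes were -0.14 (SE 0.24) for Mmp14, -0.10 (SE 0.16) for Mmp15 and -0.07 (SE 0.11) for Mmp24. Mmp17, attached by a lipid anchor, had 11.1, 8.34 and 11.2 CPM in burn against 10.5, 12.8 and 12.8 CPM in control ganglia, a log2 fold change of -0.24 (SE 0.17). Mmp25, also lipid-anchored, stood at 41.5 ± 2.10 CPM in burn and 38.3 ± 3.996 CPM in control ganglia (SD, n = 3 each). Summed over the 6 genes, the group held 262 to 305 CPM in burn and 240 to 301 CPM in control ganglia.

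Mmp2, the gelatinase that cuts denatured collagen and basement membrane, did not pass. It had 96.9, 53.8 and 47.3 CPM in burn 1, 2 and 3 and 70.7, 77.4 and 50.01 CPM in control 1, 2 and 3. Burn 1 was the highest of all 6 libraries and burn 3 the lowest. The log2 fold change was -0.00 (SE 0.29, 95% interval -0.68 to 0.68), and the interval leaves room for a difference of up to these sizes in either direction. Mmp11, a stromelysin-like protease of stromal cells, had a log2 fold change of -0.24 (SE 0.25). Among the remaining MMPs, Mmp19, Mmp23 and Mmp28 had 0.24, -0.04 and -0.18, with overlapping libraries in each.

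The chromosome 9 row, between positions 7272514 and 7699585 of GRCm38, held collagenases, stromelysins, the macrophage elastase, matrilysin and enamelysin. Mmp8 and Mmp9, which the rule left out, were not counted in it and their reads are not given here. Of its 9 members 1 was read often enough to be tested. That gene was Mmp13, the collagenase known from hypertrophic cartilage and bone. It had 122, 118 and 500 reads in burn 1, 2 and 3, against 538, 112 and 279 in control 1, 2 and 3, or 5.39, 3.91 and 7.6 CPM against 14.7, 6.23 and 3.50 CPM. Control 1 stood above the other 5 libraries and control 3 below all of them. The log2 fold change was -0.52 (SE 0.51, 95% interval -1.73 to 0.69), and without control 1 it was 0.24. The deeper pair differed by 1.12 on the log2 scale and the 4 shallower libraries by -1.17, so the direction was opposite in these subsets of the libraries.

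Control 1 also held the highest sum of 6 cartilage and bone markers, 5 of them tested. They summed to 16.2 to 25.9 CPM in burn and 21.9 to 32.97 CPM in control ganglia, and 32.97 CPM was the value of control 1. Bglap, which encodes osteocalcin, had 1.32, 2.02 and 0.502 CPM in burn against 6.61, 3.28 and 1.28 CPM in control ganglia. Its controls stood in the order of those of Mmp13, but burn 3 was the lowest of its burn libraries and the highest of those of Mmp13. Col2a1, the main collagen of cartilage, had 17.97, 11.4 and 8.85 CPM in burn against 11.4, 12.6 and 10.6 CPM in control ganglia, and Col10a1, the collagen of hypertrophic cartilage, 1.02, 0.430 and 0.699 CPM against 0.955, 0.779 and 1.14 CPM. Neither was highest in control 1. Col9a1, another gene of the list, was highest there, with 0.265, 0.199 and 0.304 CPM in burn against 0.464, 0.445 and 0.327 CPM in control ganglia. Its burn libraries lay below all controls, with a log2 fold change of -0.61 (SE 0.35), from 32 reads in burn and 51 in control ganglia. Ibsp, bone sialoprotein, had 5.30, 7.22 and 5.82 CPM in burn against 13.6, 7.56 and 8.54 CPM in control ganglia and was the 1 gene of the list with an unadjusted p under 0.05 (0.0244 in edgeR's quasi-likelihood test, lower in burn). Matn1, the gene of the list not tested, had 1, 2 and 2 reads in burn and 0, 0 and 1 in control ganglia. In CPM each burn library of Matn1 lay above each control. The part of these genes in the Mmp13 values was not tested.

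The other 8 genes of the row held 61 reads over the 3 burn libraries and 44 over the 3 control libraries. Mmp12, the elastase of macrophages, had 4, 6 and 17 reads in burn and 3, 3 and 12 reads in control ganglia, and in CPM each burn library lay above each control. Its pooled counts gave a ratio of 1.70 with exact 95% counting limits of 0.901 and 3.27, and no test was made. Macrophage markers, 7 of 8 measured, summed to 209 to 386 CPM in burn and 183 to 288 CPM in control ganglia, and their part was not tested. Mmp3, stromelysin-1, had 2, 6 and 13 reads in burn and 10, 0 and 6 reads in control ganglia, a pooled ratio of 1.49 (0.738 to 3.04). Mmp27 had 7 reads in burn and 9 in control ganglia, Mmp7 had 2 and 1, and Mmp1a and Mmp20 had 2 each in burn and 0 in control ganglia. No read of Mmp10 or Mmp1b was counted. A count of 0 allows up to 3 reads, or 0.0456 to 0.132 CPM in the burn libraries and 0.0377 to 0.167 CPM in the control libraries, so levels under these were not detectable at this depth. The limits on pooled counts and on counts of 0 cover counting error only. Outside the row, Mmp21 and Adamts13 were the other members too rare to test.

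**Figure D3:**
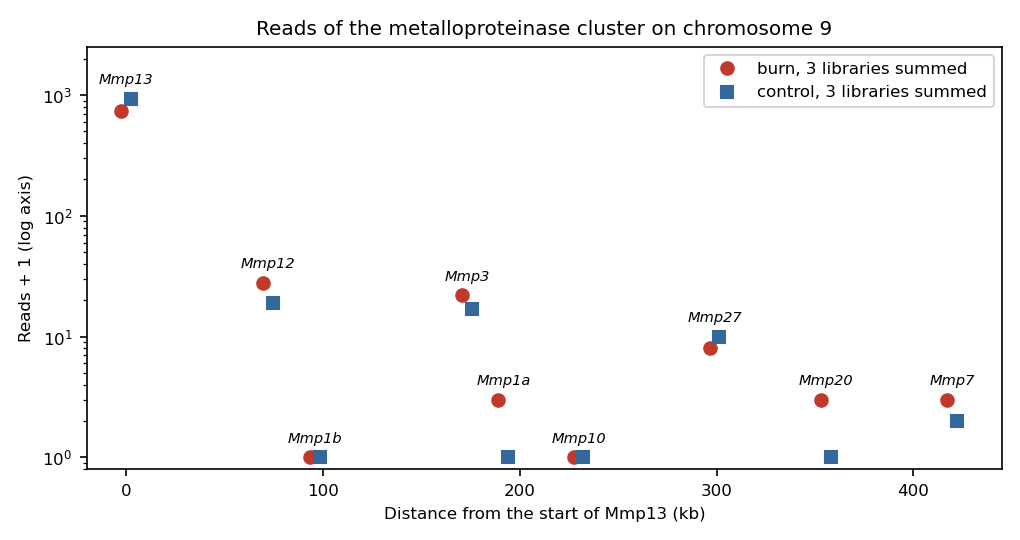
Reads of the 9 MMP members in the chromosome 9 row, counted without Mmp8 and Mmp9. They are plotted as reads + 1 on a log axis against the distance of each gene's start from that of Mmp13 (kb). Red circles sum the 3 burn libraries and blue squares the 3 control libraries, drawn slightly apart. Mmp13 holds 740 burn and 929 control reads, and the other 8 genes hold 61 and 44 in all.

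None of the inhibitors passed the test. Per kilobase of exons the 4 TIMP genes summed to 163, 148 and 170 CPM in burn 1, 2 and 3, against 138, 162 and 177 CPM in control 1, 2 and 3. The 21 MMP genes summed to less on that scale in every library, 94.6, 71.2 and 71.4 CPM per kilobase in burn and 77.3, 89.5 and 77.4 in control ganglia. Timp2, which inhibits MMPs broadly and helps Mmp14 to activate Mmp2, had 478, 455 and 465 CPM in burn and 399, 458 and 535 CPM in control ganglia. All burn values lay within the range of the controls. Its log2 fold change was 0.01 (SE 0.14, 95% interval -0.31 to 0.33). Timp3, which binds to the matrix and also inhibits aggrecanases, had 280, 221 and 375 CPM in burn and 251, 314 and 309 CPM in control ganglia, a log2 fold change of 0.00 (SE 0.20). Burn 2 and burn 3 were the lowest and the highest of the 6 libraries.

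Timp1 and Timp4 had few reads. Per kilobase of exons, Timp1 stood at 3.63 ± 1.83 CPM in control ganglia, with a mean above those of Pappa and Mmp16. Timp4 stood lower, at 0.352 ± 0.197 CPM per kilobase (SD, n = 3 each). Timp1, the inhibitor known for its induction in inflamed and injured tissue, had 4.55, 3.44 and 3.18 CPM in burn and 3.52, 4.67 and 1.47 CPM in control ganglia, from 103, 104 and 209 reads against 129, 84 and 117. Control 3 alone stood well below the rest. The log2 fold change was 0.24 (SE 0.40, 95% interval -0.71 to 1.18), 1.11 between the deeper pair, -0.04 among the 4 shallower libraries, and -0.13 without control 3. Timp4 had 2.56, 1.16 and 2.10 CPM in burn and 3.28, 2.002 and 0.954 CPM in control ganglia, a log2 fold change of -0.09 (SE 0.48). Its lowest and highest libraries were both controls.

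The TIMP genes Timp1, Timp3 and Timp4 each lie within the span of a synapsin gene, Syn1, Syn3 and Syn2 in that order. Synapsins coat synaptic vesicles and are made by neurons. Exons of Timp3 share 1733 bases with Syn3 on the other strand and those of Timp4 share 90 with Syn2, while Timp1 shares none with Syn1. The sources used here do not say whether the counting used strand, so reads of such shared bases cannot be assigned. Syn1 had 96.4, 84.1 and 115 CPM in burn and 64.0, 84.4 and 67.1 CPM in control ganglia, a log2 fold change of 0.46 (SE 0.16, adjusted p 0.9998 in edgeR's quasi-likelihood test). Syn3 had 5.43, 4.70 and 6.45 CPM in burn and 3.88, 4.45 and 4.17 CPM in control ganglia, and Syn2 a log2 fold change of -0.02 (SE 0.13).

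Of the 7 proteoglycan-cutting ADAMTS genes, which cleave aggrecan, versican and related molecules, all 7 were tested and 0 were called, 4 with positive and 3 with negative fold changes. Their median was 0.02 on the log2 scale. Adamts1 had 56.5, 40.2 and 41.8 CPM in burn and 37.6, 52.1 and 33.9 CPM in control ganglia, a log2 fold change of 0.17 (SE 0.20). Adamts5, a main aggrecanase of cartilage, had 71.7, 55.5 and 115 CPM in burn and 75.2, 80.8 and 83.2 CPM in control ganglia, a log2 fold change of 0.02 (SE 0.25). The burn libraries of Adamts5 spread on both sides of a narrow control range. Adamts4, the other main aggrecanase, had 7.59, 2.65 and 3.85 CPM in burn and 3.55, 4.39 and 3.15 CPM in control ganglia, a log2 fold change of 0.34 (SE 0.38), and without burn 1 it was -0.17. Adamts8, Adamts9, Adamts15 and Adamts20 had log2 fold changes between -0.20 and 0.06. Adamts1 and Adamts5 lie next to each other on chromosome 16, 53059 bases apart, and Adamts15 and Adamts8 on chromosome 9, 20109 bases apart.

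None of the remaining ADAMTS groups but that of Adamts19 held a gene with an unadjusted p under 0.05. The procollagen amino-propeptidases Adamts2, Adamts3 and Adamts14, which trim fibrillar procollagens, had log2 fold changes of -0.20 (SE 0.34), 0.01 (SE 0.14) and 0.20 (SE 0.36). Adamts3 stood at 14.99 ± 2.35 CPM in burn and 14.9 ± 0.426 CPM in control ganglia (SD, n = 3 each). Adamts7 and Adamts12, which can cut the cartilage oligomeric matrix protein, had -0.17 (SE 0.23) and 0.17 (SE 0.38). Adamts6, Adamts10 and Adamts17, linked to fibrillin microfibrils, had 0.32 (SE 0.19), -0.14 (SE 0.36) and -0.35 (SE 0.21). Adamts16 and Adamts18 had -0.37 (SE 0.40) and -0.25 (SE 0.32). Adamts13, which cuts von Willebrand factor in blood, was not tested, with 5, 3 and 11 reads in burn and 7, 1 and 13 in control ganglia, a ratio of pooled counts of 1.02 with exact 95% counting limits of 0.521 and 2.

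Levels of different genes were set side by side as CPM per kilobase of annotated exons. In control ganglia Timp2 led at 119 ± 17.4, followed by Timp3 at 35.8 ± 4.32, Mmp15 at 22.9 ± 4.57 and Mmp2 at 19.6 ± 4.23 CPM per kilobase (SD, n = 3). Mmp15 and Mmp2 did not differ beyond their ranges, while Timp2 stood above Timp3, and Timp3 above Mmp15, in every control library. Mmp24 followed at 9.08 ± 0.676, Mmp14 at 8.18 ± 1.55, Adamts1 at 7.77 ± 1.81, Adamts5 at 7.39 ± 0.383, Adamts2 at 7.27 ± 2.47 and Mmp25 at 7.23 ± 0.754, and the neighbours among these 6 overlapped. Pappa and Mmp16 stood in the middle of the order, at 2.65 ± 0.141 and 2.999 ± 0.204 CPM per kilobase in burn, against 1.69 ± 0.0343 and 1.76 ± 0.291 in control ganglia. At the low end of the tested members, Adamts19 stood at 0.0551 ± 0.00890 in burn and 0.0273 ± 0.00861 CPM per kilobase in control ganglia. Dividing by the longest transcript instead of all exons placed Timp3 at 61.8 and Mmp14 at 15.05 CPM per kilobase in control ganglia.

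**Figure D4:**
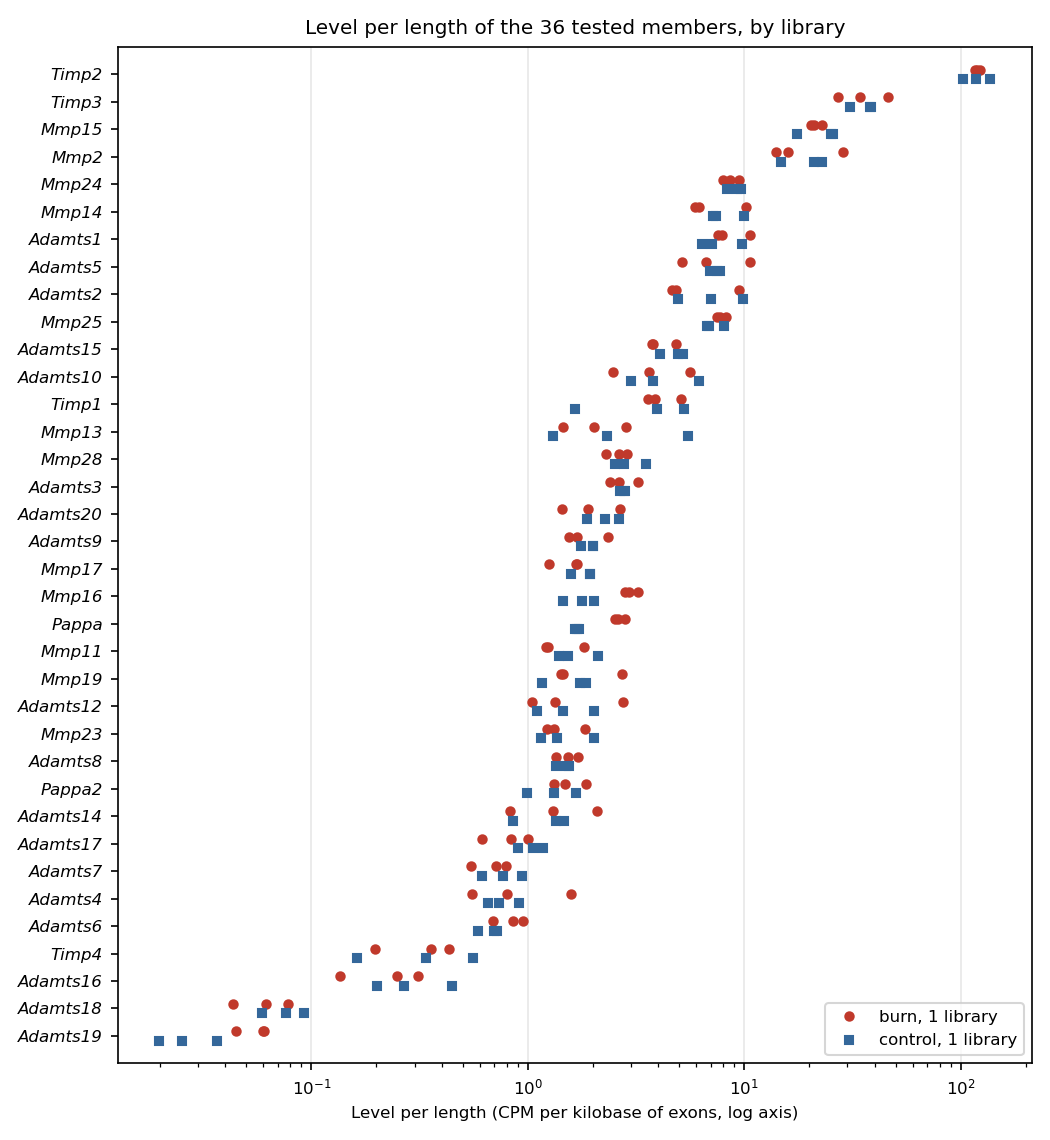
Level per length (CPM per kilobase of exons, log axis) of the 36 tested members, ordered by their control mean; each red circle is 1 burn library and each blue square 1 control library. Timp2 stands highest near 119 in control ganglia and Adamts19 lowest near 0.0273, and the groups separate at Mmp16, Pappa and Adamts19.

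A further pattern among the members ran across libraries and not between the groups. In 16 of 36 members (44.4%) burn 1 was the highest burn library and control 2 the highest control library, which held for 3769 of 17534 tested genes (21.5%). The 16 genes were Adamts1, Adamts2, Adamts4, Adamts9, Adamts10, Adamts12, Adamts14, Adamts16, Adamts17, Mmp2, Mmp11, Mmp14, Mmp19, Mmp23, Mmp28 and Timp1. Mmp2, Mmp14 and Adamts2 among them are known from fibroblasts. The pattern was chosen after the values were seen. Fibroblast markers, 7 of 7 tested and 0 called, summed to 7016, 3692 and 3574 CPM in burn 1, 2 and 3 and to 6874, 8187 and 4401 CPM in control 1, 2 and 3, with none at 0. Of the 7 markers, 4 were likewise highest in burn 1 and in control 2, Col1a1, Col1a2, Col3a1 and Pdgfra. The same held for 5 of 6 endothelial, 4 of 7 tested macrophage, 3 of 6 mural cell and 4 of 6 spinal cord markers, and for 1 of 5 tested cartilage and bone markers. It held for 0 of the tested markers of sensory neurons, injured neurons, satellite glia, Schwann cells, neutrophils and muscle. Pappa and Mmp16 were not among the 16, and their highest libraries were burn 2 and burn 3. The part of any of these cell types in the 16 genes was not tested.

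**Figure D5:**
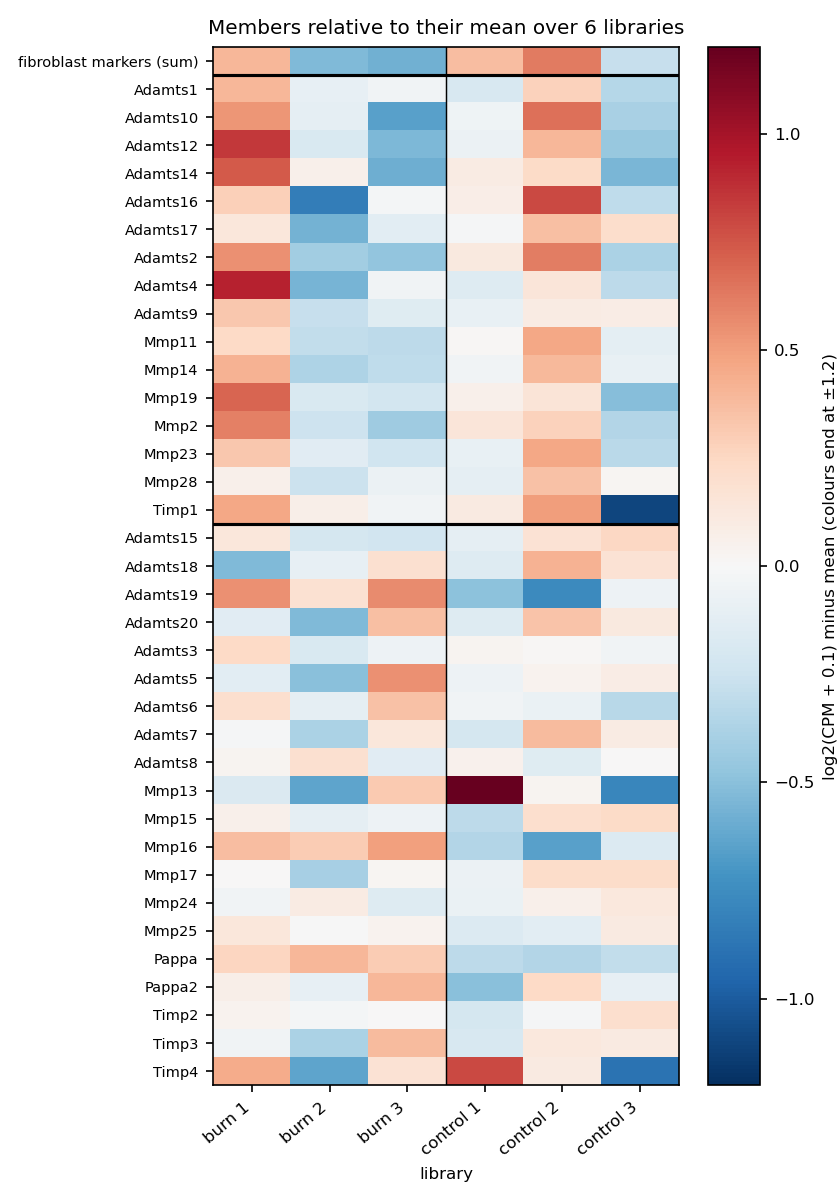
Level of each tested member in each library as log2(CPM + 0.1) minus its mean over the 6 libraries, burn libraries left and control libraries right, with the summed fibroblast markers in the top row. The upper block holds the 16 members that were highest in burn 1 and in control 2 within their groups; in the lower block Pappa, Mmp16 and Adamts19 are red in burn and blue in control libraries.

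Partners of these enzymes outside the families did not pass either. The list held activators, cell-surface inhibitors, clearance receptors and substrates, and all 32 genes were tested. In edgeR 0 were called. At an unadjusted p under 0.05 there was 1 lower gene and 0 higher ones. Comp, the cartilage oligomeric matrix protein that Adamts7 and Adamts12 can cut, was that gene, with 16.8, 14.7 and 18.2 CPM in burn and 30.2, 32.7 and 20.8 CPM in control ganglia. The burn libraries lay below all controls, which held for 2.91% of all tested genes, and control 3 was the closest to the burn libraries. Its log2 fold change was -0.75 (SE 0.19, adjusted p 0.9998 in edgeR's quasi-likelihood test), -0.19 between the deeper pair and -0.999 among the 4 shallower libraries. Among the controls Comp was highest in control 2. So were Col1a1 (1980, 955.6 and 641 CPM in burn, 2439, 3014 and 1267 CPM in control ganglia), Col1a2, Col3a1 and Pdgfra of the fibroblast list, while its Dcn, Lum and Dpt were not. Over all 6 libraries Comp, Col1a1 and Col1a2 were highest in control 2, but Col3a1 and Pdgfra in burn 1. Among the burn libraries Comp was highest in burn 3, where Col1a1 and Col1a2 were lowest. Log2 fold changes were negative for Col1a1, Col1a2 and Col3a1 and positive for Dcn, Lum, Pdgfra and Dpt. The cartilage and bone markers given beside Mmp13 had their highest sum in control 1. The part of either list in the Comp values was not tested. Over the 32 partners 13 fold changes were positive and 19 negative, with a median of -0.04 on the log2 scale.

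The substrates and inhibitors of pappalysins did not pass. Igfbp5, a binding protein cut by both pappalysins, had a log2 fold change of 0.10 (SE 0.31), Igfbp4 of -0.03 (SE 0.14) and Igf1 of -0.11 (SE 0.24). The stanniocalcins Stc1 and Stc2, which inhibit pappalysins, were under 1 CPM in the mean of either group and overlapped between the groups. Stc2 had 0.397, 0.331 and 0.365 CPM in burn and 0.600, 1.89 and 0.226 CPM in control ganglia, with control 2 far above the rest, and Stc1 had 0.397, 0.397 and 0.790 CPM in burn and 0.328, 0.779 and 0.251 CPM in control ganglia. Both were higher in burn 3 than in control 3, the deeper pair, and both were lower in burn among the 4 shallower libraries, with log2 differences of -1.77 for Stc2 and -0.48 for Stc1. Reck, a membrane-bound inhibitor of MMPs, had 0.08 (SE 0.20). Furin, the protease that removes the propeptide of membrane-type MMPs and ADAMTS enzymes, had -0.20 (SE 0.17), and Lrp1, the endocytic receptor that clears many of these proteins, had 0.08 (SE 0.28). Spock1, a matrix proteoglycan, was the partner whose burn libraries lay above all controls, at 68.9 ± 6.75 CPM in burn and 57.0 ± 6.76 CPM in control ganglia (SD, n = 3 each), a log2 fold change of 0.28 (SE 0.13). Such an order held for 4.33% of all tested genes. In Spock1 the groups nearly touched, with 63.65 CPM in burn 1 and 63.39 CPM in control 2. Vcan, versican, had a larger log2 fold change, 0.52 (SE 0.23), and its groups overlapped.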

How the data were processed

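Stranded total RNA of 3 burn and 3 control libraries was sequenced as single-end reads of 75 nucleotides, per the labels' protocols. The authors deposited raw counts of reads per gene symbol for each library. Per the submitters' processing notes, the tools included STAR, SAMtools and HTSeq and the builds GRCm38 and mm10. The strand setting and annotation release of the counting were not stated. HTSeq tally lines, 49.181 to 56.217% of entries, were left out. Within a group, chi-square divided by its degrees of freedom ran from 40.5 to 189 between libraries, above sampling noise, and all were kept.

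The test was edgeR 4.0.16 under R 4.3.3 (filterByExpr with a minimum count of 10 and total of 15, TMM scaling, glmQLFit with robust, glmQLFTest, two-sided, group as the only term), with Benjamini-Hochberg adjustment over 17534 genes and calls at an adjusted p under 0.05. The biological coefficient of variation was 0.221. DESeq2 1.42.0 gave no adjusted p for 11999 genes, and limma 3.58.1 was used for voom. A standard error is the log2 fold change over the square root of F. Levels per length used the union of exons in GENCODE M21, which held all 46 members and 35656 of 38926 symbols. Promoters came from RefSeq (GRCm38.p6). The procedure was tested on simulated data. Figures were drawn with matplotlib 3.10.9.

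The members, the lists and the tests were chosen with earlier results of these data known. Genes named with values in each library were those with an unadjusted p under 0.05, the 6 with the highest control level per length and a list of well-known members given by name. Partners were named at an unadjusted p under 0.05, beside Reck, Furin, Igfbp5 and Lrp1. Other genes, such as Bglap, Syn1 and Spock1, were named after their values were seen. Reads carry no molecular identifiers. Alternatives were other scaling, filters, tools and thresholds, a depth term, leaving out each library and a replicate block.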

Additional observations from a re-analysis of the deposited data

How the results depend on the processing

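No member was called by edgeR under any alternative, with each library left out included, and DESeq2 called 2 higher. At an adjusted p under 0.1, edgeR with the depth term had 1 member higher, Mmp16 (adjusted p 0.0668). Among all genes, 14 were called higher without a filter, 2 with a mean of at least 1 CPM, 11 higher and 4 lower with libraries 1 and 2 alone, 8 with the depth term, 28 by DESeq2, 7 at an adjusted p under 0.1, and 1 to 6 with a library left out. Over 22 named genes and 16 settings, 297 of 351 log2 fold changes kept direction and side of the threshold, 52 reversed, and 2 passed it (Pappa and Mmp16 in DESeq2). Pappa lay between 0.60 and 0.68, Mmp16 between 0.65 and 0.89, and 7 genes kept their direction throughout.

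The reversals were at values near 0 or in scattered genes, and the cause was not tested. Adamts5 was -0.0002762 with upper-quartile factors, -0.29 with the replicate block, -0.28 with libraries 1 and 2 alone, -0.01 with the depth term and -0.0572 in voom. Mmp15 was 0.047 with the block and 0.0297 with libraries 1 and 2 alone, and Mmp24 was 0.0536 and 0.0558. Mmp2 was 0.0078 with RLE factors, 0.0123 with a mean of at least 1 CPM, 0.0383 with libraries 1 and 2 alone and 0.0025 in DESeq2. Timp1 was -0.0161 with the block and -0.0131 with libraries 1 and 2 alone. Timp2 was -0.0027 with upper-quartile factors and -0.0048 without a filter. Timp3 was -0.0135, -0.0077, -0.16, -0.16, -0.0079 and -0.0392 with upper-quartile factors, no filter, the block, libraries 1 and 2 alone, the depth term and voom. Timp4 was 0.16 in voom, and Reck -0.0889 with the block and -0.0681 with libraries 1 and 2 alone. With a library left out, log2 fold changes spanned -0.0033 to 0.37 (Adamts1), -0.17 to 0.63 (Adamts4), -0.32 to 0.23 (Adamts5), -0.90 to 0.24 (Mmp13), -0.43 to 0.0244 (Mmp14), -0.25 to 0.0117 (Mmp15), -0.38 to 0.20 (Mmp2), -0.14 to 0.0026 (Mmp24), -0.13 to 0.59 (Timp1), -0.0900 to 0.13 (Timp2), -0.21 to 0.17 (Timp3), -0.47 to 0.45 (Timp4), -0.32 to 0.335 (Igfbp5), -0.19 to 0.35 (Lrp1) and -0.0464 to 0.24 (Reck).

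The replicate block could use only the 4 libraries numbered 1 and 2 and called 0 members, and 4 higher and 0 lower genes. The deviations of same-numbered libraries correlated at -0.0903 and -0.0551. Differently numbered libraries were not compared, so these values cannot tell whether the numbers pair the samples. Per length of the longest transcript, Timp3 stood at 61.77, Mmp24 at 9.88 and Mmp14 at 15.05 CPM per kilobase in control ganglia. The 10 members not tested were below the filter on low counts, and 8 of them had a fold change when no filter was used.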
